A study of Mus musculus with 13 samples.

Results

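Zic1, Zic2, Zic4 and Zic5 encode zinc finger transcription factors and lie in the mouse genome as pairs of neighbouring genes, Zic1 with Zic4 on chromosome 9 and Zic2 with Zic5 on chromosome 14. These 4 genes were taken by name from the 22367 protein-coding genes that the GENCODE vM1 annotation of the mm9 build places on chromosomes 1 to 19, X and Y. At each gene, the peaks of AEBP2, an accessory subunit of Polycomb repressive complex 2 (PRC2), were set beside those of H3K27me3, the histone mark that PRC2 deposits. The genes of the Zic1/Zic4 pair lay under long domains of AEBP2 and H3K27me3. In some lists a single peak held both gene starts, and in others a break at the Zic1 start divided them. Zic2 had AEBP2 and H3K27me3, with a break in H3K27me3 at its start site. Zic5 had low-scoring AEBP2 peaks in part of the lists and no H3K27me3 peak at its start site.

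The data were 5 peak lists from chromatin immunoprecipitation sequencing (ChIP-seq) of mouse embryonic stem cells (mESCs), wild-type in genotype. There were 2 replicates for endogenous AEBP2 and for H3K27me3. FS2-AEBP2, the protein with an N-terminal Flag-StrepII tag expressed from a plasmid, had 1 sample and so no replicate. All 5 samples carry the label of a male (XY) line of strain 129/1, grown on gelatine in serum with LIF, while the methods of the study name E14 mESCs for the tagged protein. The antibody against the mark is labelled only as anti-H3K27, and the names of its lists seem to swap the replicate numbers of the sample records, which were followed here. The tagged protein was precipitated by a different ChIP protocol from that used for the endogenous ones. Input, SUZ12 and Aebp2 mutant samples were not analysed here, and peak lists hold no expression values against which the labelled cell type could be checked.

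A peak in these lists is a broad region in which the caller found reads piled up above background, with a whole-number score whose scale is not stated. A score is therefore given with its percentile, the share of peaks of the same list with a lower score. The lists held 2877 and 6779 peaks for AEBP2 replicates 1 and 2, 2884 for FS2-AEBP2, and 14112 and 9275 for H3K27me3 replicates 1 and 2, each with a median length between 855 and 2244 bp. The lists hold no read counts, so depth is unknown and its part in the number of peaks was not tested. A gene without a peak had no region that passed the threshold of the authors, which does not show that the protein or mark was absent.

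ZIC proteins carry zinc fingers of the C2H2 type that resemble those of the GLI effectors of Hedgehog signalling. They act in the early embryo in the neural plate, the dorsal neural tube, the cerebellum and the neural crest, and loss of Zic2 is known to disturb the division of the forebrain. In mESCs such developmental regulators are typical PRC2 targets, where PRC2 occupies CpG islands and trimethylates lysine 27 of histone H3. AEBP2 belongs with JARID2 to one of the forms of PRC2.

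The sequence before the start site is shown for the 3 members that have an entry in the RefSeq promoter table. The lists differed from each other within these bases at Zic1 and Zic5, whereas at Zic4 they did not. Each is 250 bases of mm9, read 5′ to 3′ on the strand of the gene up to the base before the GENCODE gene start, and contains no annotated exon. CpG dinucleotides, the feature shared by the CpG islands that PRC2 occupies, are in capitals. The RefSeq promoter table (GRCm38.p6) held these 3 genes, and its start sites, matched to mm9 by sequence, lay 42 bp from the GENCODE start for Zic1, 19 bp for Zic5 and 6559 bp for Zic4. An entry for Zic2 was missing. The regions are chr9:91260649-91260898 on the minus strand for Zic1, chr9:91257001-91257250 on the plus strand for Zic4, where it lies in an intron of Zic1, and chr14:122864900-122865149 on the minus strand for Zic5.
Zic1: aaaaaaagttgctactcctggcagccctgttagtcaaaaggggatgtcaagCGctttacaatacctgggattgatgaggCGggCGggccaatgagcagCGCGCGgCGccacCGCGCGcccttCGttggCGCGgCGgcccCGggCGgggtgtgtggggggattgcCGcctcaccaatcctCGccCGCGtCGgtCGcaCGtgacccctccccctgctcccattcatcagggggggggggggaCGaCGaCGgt
Zic4: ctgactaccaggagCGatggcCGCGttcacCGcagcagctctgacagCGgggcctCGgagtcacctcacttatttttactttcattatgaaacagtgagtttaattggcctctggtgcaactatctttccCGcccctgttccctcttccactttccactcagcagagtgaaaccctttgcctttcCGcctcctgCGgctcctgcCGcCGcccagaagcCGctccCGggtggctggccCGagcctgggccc
Zic5: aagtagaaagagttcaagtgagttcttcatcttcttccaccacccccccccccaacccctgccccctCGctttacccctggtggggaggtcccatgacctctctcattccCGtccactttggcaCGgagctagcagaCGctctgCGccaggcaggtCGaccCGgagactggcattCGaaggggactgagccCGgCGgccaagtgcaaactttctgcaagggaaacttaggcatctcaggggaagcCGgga

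These stretches held 26 CpG dinucleotides before Zic1, 14 before Zic4 and 11 before Zic5, with GC contents of 66.8%, 59.6% and 60.0%. All 250 bases before Zic1 lay inside a peak of both AEBP2 replicates and of H3K27me3 replicate 2, and none lay inside a peak of FS2-AEBP2 or H3K27me3 replicate 1. All 250 bases before Zic4 lay inside peaks of all 5 lists. Of the bases before Zic5, all 250 lay in an AEBP2 replicate 2 peak, 100 in an FS2-AEBP2 peak and none in the other 3 lists.

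Zic1 (ENSMUSG00000032368) lies on the minus strand from 91252896 to 91260648 and Zic4 (ENSMUSG00000036972) on the plus strand from 91257251 to 91284186. Their gene models overlap by 3398 bp at their starts, because the longest Zic4 model begins inside Zic1, and the pair spans 31291 bp. Zic5 (ENSMUSG00000041703) lies on the minus strand from 122856017 to 122864899 and Zic2 (ENSMUSG00000061524) on the plus strand from 122874604 to 122879074. These genes are transcribed away from each other with 9704 bp between them, which hold the noncoding gene 2610035F20Rik on the minus strand from 122869506 to 122872801. The annotation gives 3 start sites of coding transcripts for Zic1, 8 for Zic4, 2 for Zic2 and 1 for Zic5.

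To see which start sites had AEBP2 and the mark, peaks were counted within 1 kb on either side of each gene start. In AEBP2 replicate 1 a peak was found at 3 of the 4 genes, the exception being Zic5, against 9.08% of all 22367 promoters (95% Wilson interval 8.72 to 9.47). In AEBP2 replicate 2 and for FS2-AEBP2 all 4 genes had a peak, against 22.3% (21.7 to 22.8) and 6.53% (6.21 to 6.86) of all promoters. H3K27me3 was called at Zic1, Zic4 and Zic2 and not at Zic5 in each replicate, against 17.0% (16.6 to 17.5) and 17.7% (17.2 to 18.2). Zic1, Zic4 and Zic2 thus had a peak in all 5 lists, as did 1023 promoters in all, or 4.57%. The only lists with a Zic5 peak were AEBP2 replicate 2 and FS2-AEBP2, a combination found at 66 promoters, or 0.295%. The intervals cover counting error over promoters only, the 4 genes are 2 loci and not independent, and with 2 lists for a target no test of a difference between genes or targets was made.

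**Figure D1:**
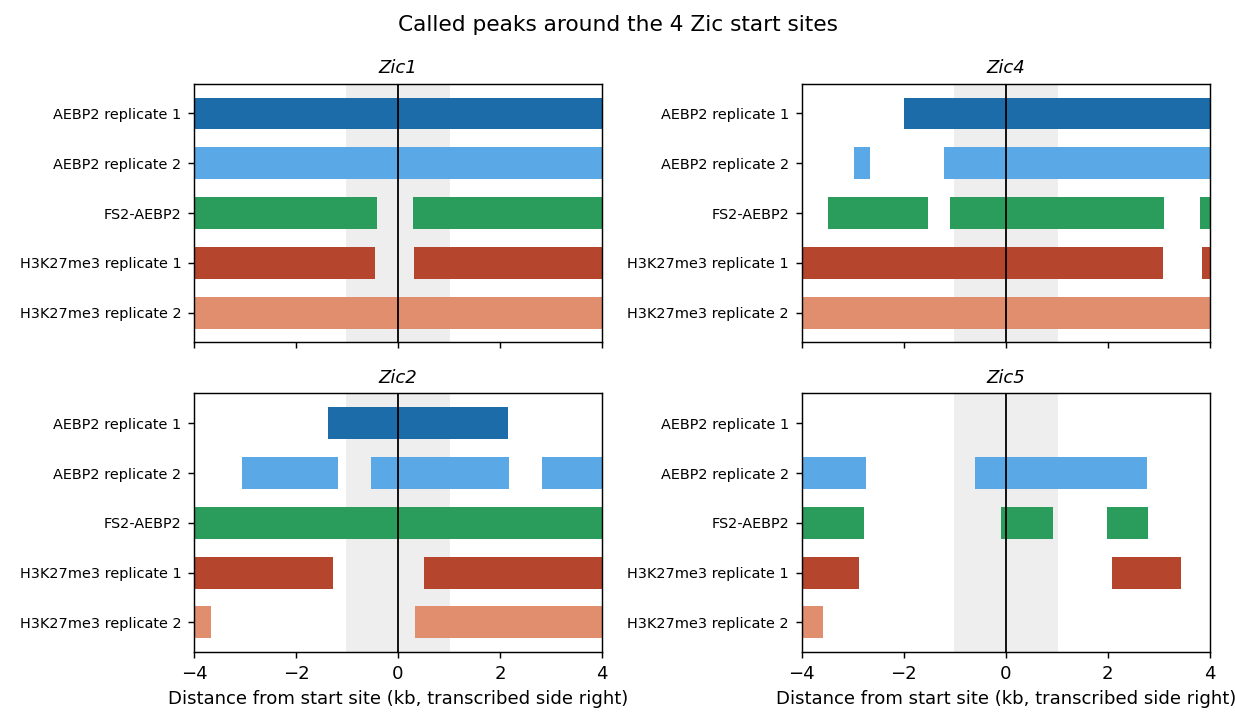
Peaks of the 5 lists (bars, 1 row per list) within 4 kb of the start site of each Zic gene, with distance in kb and the transcribed side to the right; grey marks 1 kb on either side. Zic1 shows a break at the start site for FS2-AEBP2 and H3K27me3 replicate 1, Zic2 a break in both H3K27me3 replicates under AEBP2 peaks, and Zic5 has peaks at the start site in AEBP2 replicate 2 and the FS2-AEBP2 list alone.

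At Zic1, which acts in cerebellar and dorsal neural development, and at Zic4, its partner in the cerebellum, the start sites were reached by the same AEBP2 peak. This peak ran from 91255264 to 91265938 in replicate 1 (10675 bp, score 14, percentile 82.6) and from 91256035 to 91266802 in replicate 2 (10768 bp, score 38, percentile 96.5). It therefore began 771 bp and ended 864 bp further along in replicate 2. By length it stood at percentile 98.3 of replicate 1 and 98.5 of replicate 2.

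FS2-AEBP2 covered the same stretch with separate peaks of 4199 bp (score 69, percentile 97.6) and 5752 bp (score 34, percentile 89.4). The break of 705 bp between them, from 91260352 to 91261056, held the Zic1 start site. H3K27me3 replicate 1 had a break of 774 bp at nearly the same place, from 91260327 to 91261100, between peaks of 15622 and 26279 bp that both had a score of 21 (percentile 92.9). Replicate 2 had no break there and placed the whole pair inside 1 peak of 43572 bp, from 91244066 to 91287637 (score 36, percentile 99.4), longer than 99.9% of the peaks of its list. The break at the Zic1 start site was thus seen in 1 of 2 H3K27me3 lists and in the FS2-AEBP2 list, and in neither list of endogenous AEBP2. The Zic4 gene start, 3397 bp away, lay inside a peak of every list.

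Most of Zic4 lay under peaks in every list. Its 26936 bp lay under AEBP2 peaks to 66.4% (replicate 1) and 84.9% (replicate 2), under FS2-AEBP2 peaks to 72.0%, and under H3K27me3 peaks to 97.1% and 100%. Of the 7753 bp of Zic1, AEBP2 covered 69.5% and 63.5%, FS2-AEBP2 81.1%, and H3K27me3 95.8% and 100%. Most genes had no peak at all, since any cover was found in between 7.69% (FS2-AEBP2) and 24.9% (AEBP2 replicate 2) of gene bodies. Zic1 and Zic4 were covered more fully than at least 97.7% of all genes in each list.

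All 8 start sites of coding Zic4 transcripts, which are spread over 19997 bp, lay inside a peak of 4 of the lists. In AEBP2 replicate 1 the start of Zic4-003 at 91266051 fell 113 bp past the end of a peak and the other 7 lay inside. A further AEBP2 peak covered the last 3 starts, from 91271553 to 91280082 in replicate 1 (8530 bp, score 16) and from 91269642 to 91280349 in replicate 2 (10708 bp, score 30), and FS2-AEBP2 had a peak of 9649 bp there with a score of 49 (percentile 94.5). In the list of endogenous replicate 1 this further peak scored higher than the one at the gene starts, and in the other AEBP2 lists it scored lower.

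**Figure D2:**
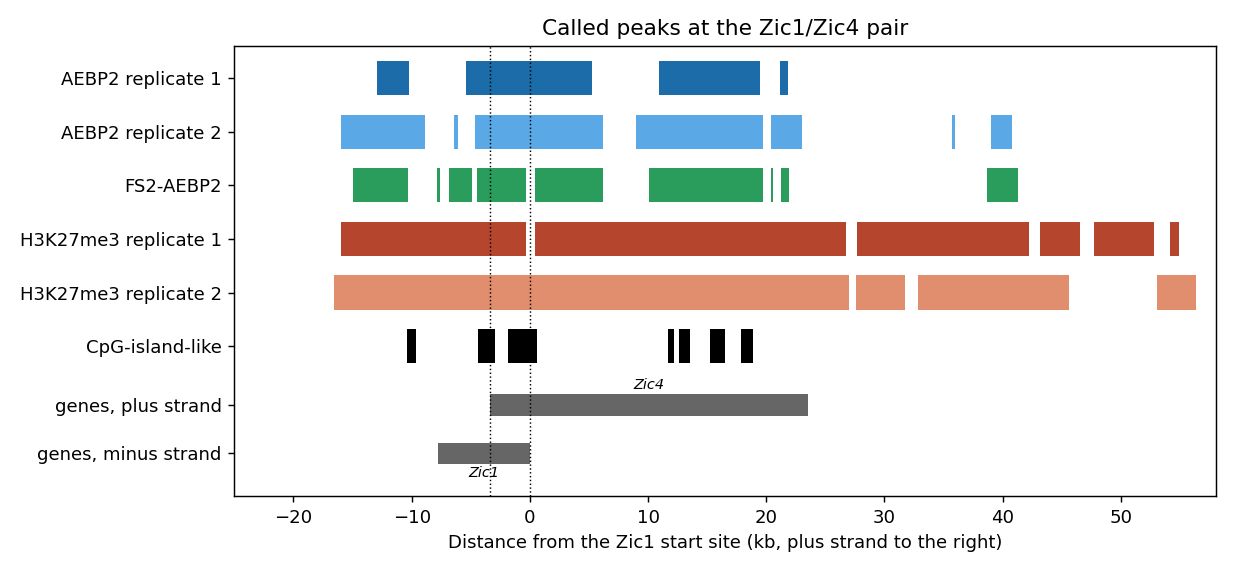
Peaks of the 5 lists at the Zic1/Zic4 pair, with CpG-island-like regions and gene models below, against distance from the Zic1 start site in kb; dotted lines mark the gene starts. H3K27me3 covers 97.5% (replicate 1) and 100% (replicate 2) of the pair, and AEBP2 forms blocks over the gene starts and over the later part of Zic4.

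Stretches resembling CpG islands were found by joining 500 bp windows in which GC made up 55% or more of bases and CpG occurred at no less than 0.65 of the frequency expected from base composition. The Zic1/Zic4 pair touched 7 of these, and another lay within 50 kb. All 8 overlapped a peak in every list, against 12.4% (FS2-AEBP2) to 31.9% (AEBP2 replicate 2) of the 20675 such regions of the genome. The 8 regions lie at a single locus and are not independent. The longest, between 91258791 and 91261260 (2470 bp), contains the Zic1 start site, and one between 91256851 and 91257660 (810 bp) that of Zic4.

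H3K27me3 reached well past the AEBP2 peaks. Within the pair and 50 kb on either side, H3K27me3 covered 65780 bp in replicate 1 and 63707 bp in replicate 2, against 22640 and 33489 bp for AEBP2 and 29993 bp for FS2-AEBP2. The bases under AEBP2 peaks lay almost wholly under the mark, with 96.6% in replicate 1 and 97.7% in replicate 2 covered by both H3K27me3 replicates, and 99.8% for FS2-AEBP2. In the other direction, AEBP2 covered 37.3% and 55.8% and FS2-AEBP2 51.1% of the bases that both H3K27me3 replicates held. Beyond the end of Zic4, an isolated peak was called from 91299694 to 91301420 in AEBP2 replicate 2 (1727 bp, score 4) and from 91299348 to 91301938 for FS2-AEBP2 (2591 bp, score 29, percentile 86.3) and lay within H3K27me3 of both replicates.

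The nearest protein-coding genes on either side of the pair are Tbc1d2b, 1087253 bp below it, and Plscr1, 860708 bp above it. Neither had an H3K27me3 or FS2-AEBP2 peak at its start site, and only Tbc1d2b had an AEBP2 peak there, in replicate 2 alone.

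Zic2, the member linked to forebrain division, had AEBP2 over its start site at 122874604 in all 3 AEBP2 lists. The peak ran from 122873222 to 122876752 in replicate 1 (3531 bp, score 8, percentile 54.7) and from 122874083 to 122876784 in replicate 2 (2702 bp, score 13, percentile 74.3). For FS2-AEBP2 it was longer, from 122870304 to 122880781 (10478 bp, score 40, percentile 91.9), and contained the whole gene. The ends of this peak on the transcribed side differed by 32 bp between the endogenous replicates, and its starts by 861 bp.

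H3K27me3 was absent from the peak lists at the Zic2 start site itself. Its peaks began 512 bp into the gene in replicate 1 and 335 bp into it in replicate 2, at 122875116 and 122874939, and ran on for 19353 bp (score 8, percentile 67.4) and 16378 bp (score 28, percentile 97.1), far past the end of the gene. The stretch without a called H3K27me3 peak over the start site measured 1788 bp in replicate 1 and 4004 bp in replicate 2. AEBP2 replicate 1 covered all of the shorter stretch and 42.9% of the longer one, and AEBP2 replicate 2 covered 63.8% and 68.5%. FS2-AEBP2 covered all of both. These shares count whole broad peaks and not only the inner blocks, which are stretches within a peak. At Zic2 such blocks made up 1140 of 3531 bp in AEBP2 replicate 1 and 1584 of 2702 bp in replicate 2. For FS2-AEBP2 they made up 5442 of 10478 bp. Cover of the stretch by blocks was not computed. A CpG-island-like region between 122872991 and 122876160 (3170 bp) contains the start site, the whole stretch of replicate 1 and part of that of replicate 2.

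Among the 1023 promoters with a peak in all 5 lists, the start site lay outside both H3K27me3 lists at 49, or 4.79% (3.64 to 6.28). It lay inside all 3 AEBP2 lists and outside both H3K27me3 lists at 5, or 0.489% (0.209 to 1.14). Zic2 is one of these, and Mex3b, B230208H17Rik and 1810031K17Rik are among the others. This combination was picked after the values at Zic2 had been seen, so these counts describe how often it occurred and are no test. Called H3K27me3 peaks also took up little of the Zic2 window, 24.4% and 33.3% of its 2001 bp. A rule that asks for 50% of the window therefore leaves H3K27me3 at 2 of the 4 genes, Zic1 and Zic4. By this rule 13.3% of all promoters had H3K27me3 in replicate 1 and 12.3% in replicate 2.

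Cover of the 4471 bp of Zic2 was 48.1% and 80.3% for the AEBP2 replicates, 100% for FS2-AEBP2, and 88.5% and 92.5% for the H3K27me3 replicates. In each list this exceeded the cover of at least 97.4% of all genes. Past the end of Zic2, AEBP2 peaks were called again, from 122881360 to 122884716 in replicate 1 (3357 bp, score 5) and from 122880399 to 122887008 in replicate 2 (6610 bp, score 25, percentile 90.6). In replicate 2 this distal peak had a higher score than any AEBP2 peak inside the pair, the highest of which was 17. The other AEBP2 lists went the other way. In replicate 1 the distal peak scored below the peak at Zic2 (score 8). The separate FS2-AEBP2 peaks past the gene scored 14, 15 and 20, against 40 at Zic2.

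Zic5, a neural crest regulator, was the member with the least. In AEBP2 replicate 1 the peak nearest to its start site was 8323 bp away, which is the one at Zic2. AEBP2 replicate 2 had a peak of 3382 bp, from 122862125 to 122865506, whose score of 4 exceeded 15.1% of its list. FS2-AEBP2 had a peak of 1022 bp, from 122863978 to 122864999, with a score of 6 (percentile 26.7). Both scores lie below the median of their list, which was 7 and 9, so neither peak remains when lower-scoring peaks are left out. The nearest H3K27me3 peak was 2086 bp from the start site in replicate 1, inside the gene (1351 bp, score 7), and 3592 bp away in replicate 2, outside it.

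Cover of the 8883 bp of Zic5 was 0% and 31.2% for AEBP2, 19.4% for FS2-AEBP2, and 15.2% and 0% for H3K27me3. Where there was any, it exceeded that of 97.2% (AEBP2 replicate 2), 97.8% (FS2-AEBP2) and 90.5% (H3K27me3 replicate 1) of all genes. The range over the lists for Zic5 did not overlap that for any other member, as the lowest value of the others was 48.1%, at Zic2 in AEBP2 replicate 1. Zic5 has a CpG-island-like region as well, which spans 2540 bp between 122862311 and 122864850 and ends inside the gene 49 bp short of the start site. It is longer than the regions at the starts of Zic1 and Zic4 and shorter than that at Zic2.

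**Figure D3:**
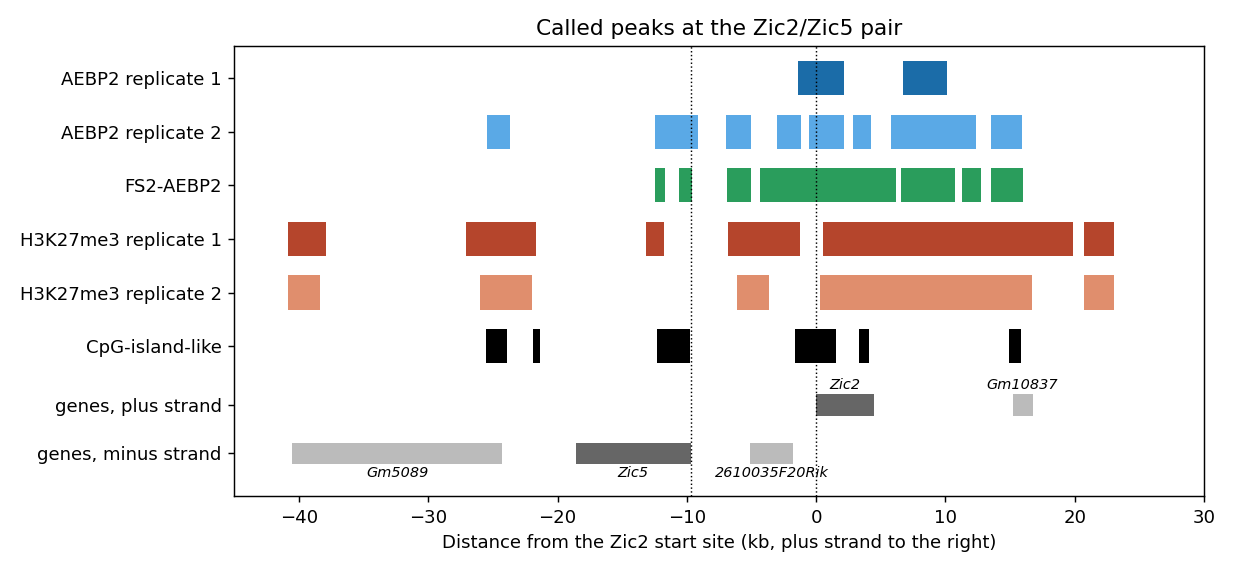
Peaks of the 5 lists at the Zic2/Zic5 pair, drawn as for the other pair, against distance from the Zic2 start site in kb. H3K27me3 extends from inside Zic2 past its end in both replicates. The Zic5 body is covered less than that of Zic2 in each list, at most to 31.2%.

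Around Zic2 and Zic5, peaks were patchier than at the other pair. The share of the 23058 bp of this pair that was covered was 15.3% and 48.9% for AEBP2, 54.2% for FS2-AEBP2 and 47.1% and 28.5% for H3K27me3. For Zic1/Zic4 the same shares of 31291 bp were 63.5% and 78.0%, 72.2%, and 97.5% and 100%. In each of the 5 lists the Zic1/Zic4 pair was the more fully covered. For AEBP2 and H3K27me3 both of its replicate values lay above both of those of Zic2/Zic5. These shares count the 9704 bp between Zic5 and Zic2 and leave out the peaks past Zic2. With 50 kb added on either side, Zic1/Zic4 was still the more covered in each list. The AEBP2 replicates then overlapped, with 17.2% for Zic1/Zic4 in replicate 1 against 18.1% for Zic2/Zic5 in replicate 2. For H3K27me3 they stayed apart, at 50.1% and 48.5% against 33.4% and 25.5%. Within Zic2/Zic5 and 50 kb on either side, part of the AEBP2 bases lay under H3K27me3 of both replicates. The shares were 72.5% for AEBP2 replicate 1, 67.9% for replicate 2 and 69.5% for FS2-AEBP2.

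Of the 9 CpG-island-like regions within 50 kb of this pair, 1 overlapped AEBP2 replicate 1, 7 replicate 2, 5 FS2-AEBP2, and 8 and 6 the H3K27me3 replicates. Of all 20675 such regions, 15.2%, 31.9%, 12.4%, 25.5% and 27.1% did so in the same order of lists. The count for AEBP2 replicate 1 was thus no higher than that background. The 9 regions lie at a single locus and are not independent. Genes beside the pair also had peaks. The nearest protein-coding gene models, Gm5089 at 5679 bp and Gm10837 at 10733 bp, had start-site peaks of AEBP2 replicate 2 and both H3K27me3 replicates, and Gm10837 also of FS2-AEBP2. The noncoding 2610035F20Rik had a start-site peak in 4 of the 5 lists.

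Whether a domain was shared within a pair was read from single peaks that contain both gene starts. Those of Zic1 and Zic4 lay inside 1 peak of AEBP2 replicate 1, AEBP2 replicate 2 and H3K27me3 replicate 2. For FS2-AEBP2 and H3K27me3 replicate 1 the break at the Zic1 start divided them, and peaks still covered 91.3% and 90.5% of the bases between the starts. Those of Zic2 and Zic5 lay inside 1 peak of no list, also after peaks within 1 kb were joined, and between 14.2% (AEBP2 replicate 1) and 64.8% (FS2-AEBP2) of the bases between them were covered.

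For comparison, 2301 pairs of protein-coding genes on opposite strands start at most 9705 bp apart, as Zic2 and Zic5 do, and either point away from each other or overlap at their starts. Both starts lay inside 1 peak at 3.17% and 10.4% of these in the AEBP2 replicates, 0.913% for FS2-AEBP2, and 4.00% and 3.69% in the H3K27me3 replicates. Where both genes of a pair had a start-site peak, these shares were 45.1% of 162 pairs and 51.8% of 463 for AEBP2, 27.3% of 77 for FS2-AEBP2, and 52.9% of 174 and 44.7% of 190 for H3K27me3. In the 3 lists in which Zic1 and Zic4 shared a peak, so did between 44.7% and 51.8% of the occupied pairs. The pairs were not matched on the distance between their starts.

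**Figure D4:**
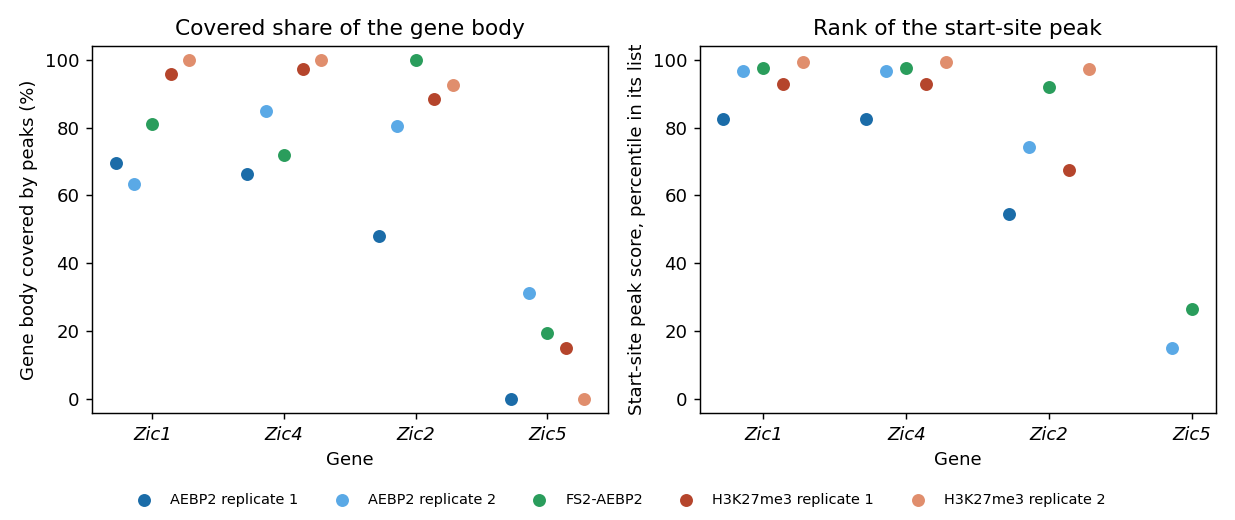
Left, percent of each gene body covered by peaks; right, percentile of the highest-scoring start-site peak within its own list; each point is 1 list. Zic5 lies lowest in both panels and has no point on the right for the 3 lists without a start-site peak.

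Ordered by the score of the peak at the GENCODE gene start, Zic1 and Zic4 stood level in every list, Zic2 followed, and Zic5 was last. Zic1 and Zic4 took the same peak or peaks of equal score. At Zic1 and Zic4 the percentiles were 82.6 and 96.5 for AEBP2, 97.6 for FS2-AEBP2, and 92.9 and 99.4 for H3K27me3. At Zic2 they were 54.7 and 74.3, 91.9, and 67.4 and 97.1. The RefSeq start of Zic4, 6559 bp from the GENCODE start, lay in another FS2-AEBP2 peak, at percentile 89.4. By that start Zic4 stood below Zic1 and Zic2 for FS2-AEBP2, and its percentiles in the other lists were unchanged. The medians over promoters with a peak in all 5 lists were 62.5 and 85.1, 69.3, and 93.7 and 91.1, so Zic2 lay below the median in both lists of endogenous AEBP2 and above it for FS2-AEBP2. For H3K27me3, Zic2 differed by 29.7 percentile points between replicates, more than the 2.3 points that separated it from Zic1 in replicate 2. In replicate 1 these genes lay further apart, with Zic1 at 92.9 and Zic2 at 67.4.

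Likeness to other genes was measured as the mean absolute difference of these percentiles over the 5 lists, among 1017 gene symbols with a start-site peak in all of them. The genes most like Zic1 and Zic4 were Nkx2-1, at 1.13 percentile points, and BC061194, at 1.29. Those most like Zic2 were Htr1a, at 7.66, and Unc5b, at 7.81. These values rest on 5 lists. The AEBP2 replicates alone differed by 13.9 points at Zic1 and by 19.6 at Zic2. The medians over promoters with a peak in all 5 lists also differed between these replicates, at 62.5 and 85.1. Likeness compares genes within a list, so these gaps do not measure its error, which is unknown.

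Among the related Gli and Glis genes, occupancy varied. Gli1 had no peak of any list over its gene body or at its start site, Gli2 had only an FS2-AEBP2 peak (score 3, percentile 4.13) and Gli3 had peaks of H3K27me3 replicate 2 alone. The Gli3 peak within 1 kb ended 645 bp upstream of the start site, and another covered 0.724% of the gene body. Glis1 and Glis3 had start-site peaks in all 5 lists, and Glis2 in none. At Glis1 and Glis3 the endogenous AEBP2 peaks measured between 1320 and 3007 bp and those of H3K27me3 between 3618 and 8680 bp. The peak at Zic1/Zic4 was thus longer than those at Glis1 and Glis3 in every list of endogenous AEBP2 and H3K27me3. By score, Glis1 stood above Zic1 and Zic4 in AEBP2 replicate 1, at percentile 85.0 against 82.6, and below them in each other list.

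Over 300 bases around the gene start, 250 before it and 50 after, Zic2 had the highest GC content of the members, 72.0%, above 92.0% of 22362 promoters. It held 32 CpG dinucleotides there, Zic1 27, Zic4 21 and Zic5 13, beside a median of 11 over all promoters. Words were searched on both strands of the same windows. The TATA word TATAAA was in none of the 4, against 13.4% of all promoters. The CCAAT box CCAAT was found at Zic1 and Zic4 (37.9% of all) and the GC box GGGCGG at Zic1, Zic4 and Zic2 (43.4% of all). The GLI word GACCACCCA was in none (0.206% of all).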

How the data were processed

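ChIP-seq peak lists of 5 wild-type samples (AEBP2 replicates 1 and 2, H3K27me3 replicates 1 and 2, FS2-AEBP2) were used. The authors called peaks in each sample on its own and deposited for each its position, a whole-number score and inner blocks, which are stretches within the broad peak. The submitters' processing notes name Bowtie, SAMtools, Picard, MACS2 2.0.10.2 and mm9. Thresholds, duplicate handling and the control library are not given in the sources used here. Every peak end fitted the mm9 chromosome lengths.

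Kept were peaks of the autosomes, X and Y (2 left out of AEBP2 replicate 1 and 13 of H3K27me3 replicate 2). Overlaps counted from 1 bp, at the GENCODE vM1 gene start and 1 kb on either side or over the gene body. The members, gene lists and alternatives were chosen with earlier results of these data known. Named are the members, the Gli and Glis genes, the nearest protein-coding gene on each side of a pair, and for each member the genes with the most similar scores. The genes that share the pattern of Zic2 and the noncoding gene were named after their values were seen. Some genes of these lists are not reported here. No protein sequences were used, so the planned protein identities were not computed. Counting code was tested on simulated lists. Alternatives were 2.5 kb windows, 50% of the window covered, scores no lower than their list median, peaks within 1 kb joined, any coding start site, either replicate, and each replicate left out. Python 3.11.15, numpy 2.4.6, scipy 1.17.1 and matplotlib 3.10.9 were used.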

Additional observations from a re-analysis of the deposited data

How the results depend on the processing

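No paired analysis was possible because no result comes from a test, so no fit with a replicate block could be made. Start-site peaks in both AEBP2 replicates were found at 3 of the 4 genes. Leaving out a replicate gave 3 to 4, with Zic5 gained without AEBP2 replicate 1. Of all promoters, 9.08% had a peak in AEBP2 replicate 1 and 22.3% in replicate 2. For H3K27me3 the count was 3, also with either replicate left out, and 2 when 50% of the window had to be covered. By that 50% rule, 13.3% and 12.3% of all promoters had a peak in H3K27me3 replicates 1 and 2. For FS2-AEBP2 the count was 4, and 3 with scores at or above the median, beside 6.53% and 3.94% of all promoters. With such scores AEBP2 replicate 2 covered 26.1% of Zic2/Zic5 in place of 48.9%, as low-scoring peaks there were lost. FS2-AEBP2 then covered 68.9% of Zic1/Zic4 and 46.2% of Zic2/Zic5, and with peaks within 1 kb joined 82.4% and 57.3%. Joining brought H3K27me3 replicate 1 to 100% of Zic1/Zic4. Both starts of 1 pair, Zic1/Zic4, then lay inside 1 domain for FS2-AEBP2 and H3K27me3 replicate 1 too, as they did (1 pair) when any coding start site counted.

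An alternative chosen after seeing the data took only the inner blocks of peaks. No pair had both starts in 1 block (0 for AEBP2 replicates 1 and 2 and H3K27me3 replicate 2, from 1 each). H3K27me3 stood at 2 genes, as no block of replicate 2 reached the Zic2 window. By inner blocks, 15.6% of all promoters had H3K27me3 in replicate 1 and 16.3% in replicate 2. Cover of Zic1/Zic4 fell to 25.4% and 48.1% for AEBP2, 45.6% for FS2-AEBP2 and 75.0% and 88.9% for H3K27me3, and cover of Zic2/Zic5 to 4.94% and 20.5% for AEBP2, 28.4% for FS2-AEBP2 and 18.8% and 15.7% for H3K27me3. Depth is unknown, so a missing peak cannot be told apart from too few reads.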
